A study of Mus musculus with 6 samples.

Results

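The metalloproteinases of the Adam, Adamts and Mmp families, the Adamts-like (Adamtsl) proteins and the tissue inhibitors of metalloproteinases (Timp) were examined at E14.5 in the lens transition zone of mice, where epithelial cells begin to become fibre cells. Members were all genes of the deposited count table whose symbol is Adam, Adamts, Adamtsl or Mmp followed by digits only, or Timp1 to Timp4. This rule found 76 of 23420 genes, namely 27 Adam, 19 Adamts, 5 Adamtsl, 21 Mmp and 4 Timp genes. Symbols that end in a letter, such as Mmp1a or Adam26a, were not members. Genes were measured by RNA sequencing in 3 mutant and 3 control libraries. Mutant embryos carried the Le-Cre transgene, were Etv4-/-, and were homozygous for floxed Etv5 and floxed Etv1 (Etv5 fl/fl, Etv1 fl/fl). Control embryos carried Le-Cre, and their label lists no Etv allele. All embryos were of mixed strain background, and all libraries therefore came from tissue with Le-Cre, a transgene expressing Cre recombinase in the ectoderm from which lens and corneal epithelium arise. Floxed alleles are deleted only where Cre is made, whereas the Etv4 null allele is carried by every cell. The labels do not say how many embryos or lenses gave each library.

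ADAM proteins are membrane proteins with a metalloproteinase and a disintegrin domain. Several of them cut other membrane proteins near the cell surface and release their outer parts, a reaction called ectodomain shedding. ADAMTS proteins are secreted proteinases of the extracellular matrix, and ADAMTSL proteins resemble them but lack the proteinase domain. MMPs cut collagens and other matrix proteins, and TIMPs bind to the active site of these enzymes and block it. The lens is wrapped in a basement membrane, the capsule, and is held by fibrillin-rich zonule fibres. Human ADAMTSL4, ADAMTS10 and ADAMTS17 are known for inherited forms of lens dislocation, and human ADAMTS18 for small corneas and early cataract. Etv1, Etv4 and Etv5 make up the Pea3 subfamily of ETS factors, which act below fibroblast growth factor receptors.

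In the mutant libraries Adam12, Adamtsl4 and Adamts17 fell, and Adamts4 and Timp1 rose. These 5 were the called members among the 33 that had enough counts to be tested, which is 15.2%. Over all 12257 tested genes 2.22% were called, 1.14% as higher and 1.08% as lower in mutant libraries (edgeR quasi-likelihood test, Benjamini-Hochberg adjusted p under 0.05). The remaining 28 tested members were not called. An unadjusted p under 0.05 was reached by 12 of the 33 members, 5 of them higher and 7 lower, against 16.2% of all tested genes. Groups were fully separate for 14 of the 33, with 8 higher and 6 lower in mutant libraries, against 22.7% of all tested genes. The fitted changes of members were spread widely around a middle near 0. Their median log2 fold change was 0.12 and their median size 0.72, against 0.00 and 0.25 over all tested genes. Members were not matched to all tested genes by level, and many had few counts. Their fitted changes were imprecise, such as 0.72 ± 0.94 for Adam21 and 1.40 ± 1.35 for Adamts3 (standard error). The larger median size is therefore no measure of stronger change in these families. DESeq2 and limma voom each called 10 members, and these were the same 10 genes, among 6.7% and 6.54% of all genes called. They comprised the 5 named above together with Adam22, Mmp14, Mmp2, Timp2 and Timp3. In the authors' deposited table the same 10 members had an adjusted p under 0.05, against 6.11% of the 13644 genes with an adjusted p there. That table covers the same 6 libraries.

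**Figure D1:**
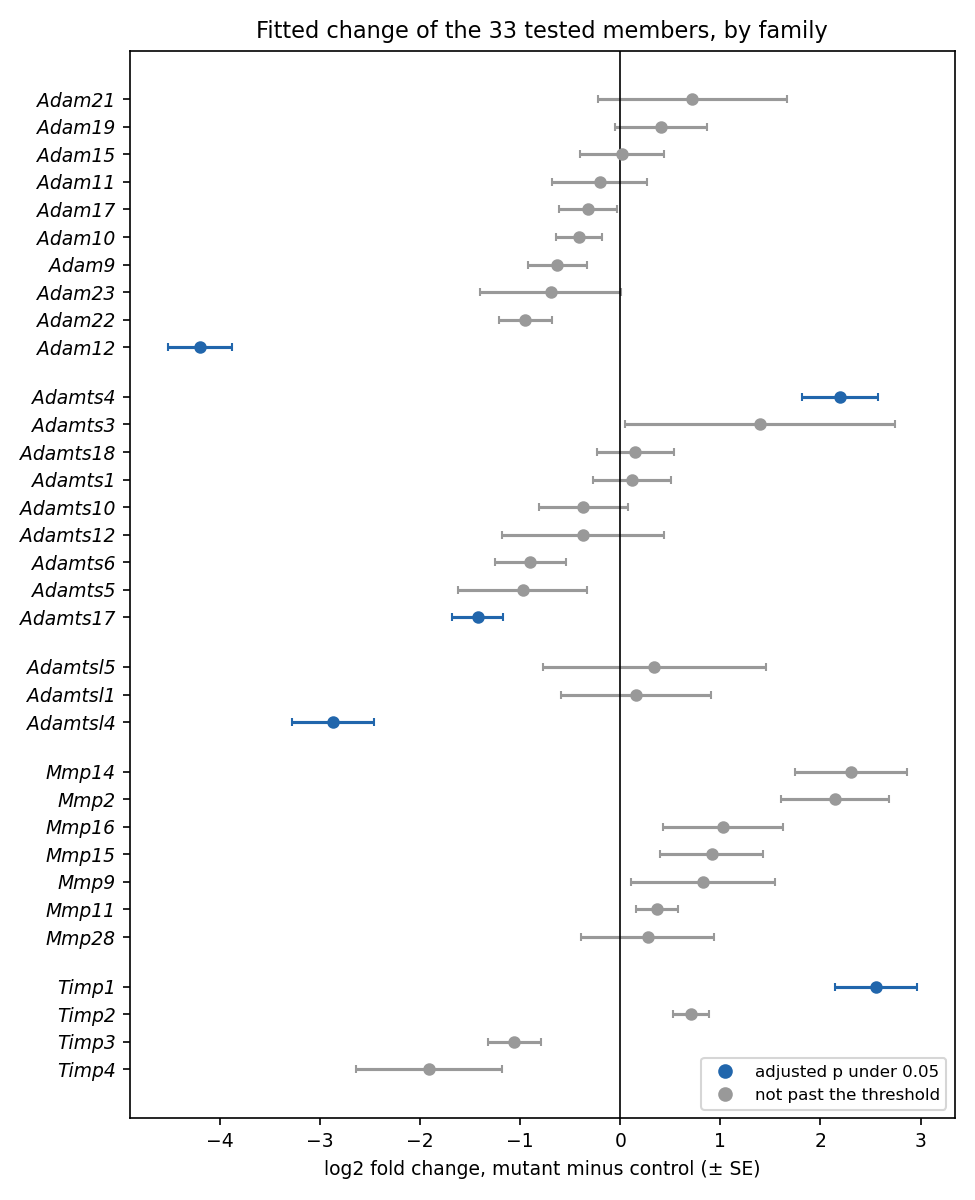
Fitted log2 fold change of mutant over control for each of the 33 tested members, grouped by family, with its standard error as a horizontal bar; blue points passed an adjusted p under 0.05 in edgeR and grey points did not. Adam12 lies farthest to the left at -4.20 and Timp1 farthest to the right at 2.56, and all 7 tested Mmp genes lie right of 0.

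The libraries held between 13364742 and 17301168 counts, so that 1 count stood for 0.0508 to 0.0825 CPM (library-size scaled counts, TMM). Of the targeted genes, Etv1 had 29.0, 21.6 and 28.9 CPM in mutant libraries, against 45.4, 56.1 and 70.7 CPM in control libraries. Etv5 had 116.2, 111.2 and 82.9 CPM in mutant libraries, against 245.5, 176.8 and 168.2 CPM in control libraries. Etv4 had 4.92, 3.71 and 4.20 CPM in mutant libraries, against 2.92, 2.13 and 3.21 CPM in control libraries. The exons deleted are not given, and reads from the remaining exons would still be counted, so these counts do not check the labels. The sample names are used here as labelled. Lens genes marked every library, with 11 of 11 listed lens markers tested. The sex-linked genes Xist and Ddx3y stood at 711 and 2 counts in mutant library 1, whereas the other 5 libraries had at most 3 counts of Xist and at least 521 of Ddx3y, so it differs from them in sex. Crystallin genes took 21.7%, 32.2% and 19.5% of counts in mutant libraries and 37.6%, 30.2% and 21.8% in control libraries. In bulk tissue, fewer cells of a type and less RNA per cell cannot be told apart.

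Among the sheddases and their relatives, Adam12 changed most. Adam12 encodes a membrane proteinase known from muscle and fat precursors and from growth factor shedding. It had 35, 15 and 15 counts in mutant libraries, against 358, 348 and 424 counts in control libraries. This amounted to 1.78, 1.24 and 0.818 CPM in mutant and 26.8, 21.1 and 23.5 CPM in control libraries. Every mutant library thus lay far below the lowest control library. Adam12 averaged 1.28 CPM ± 0.481 in mutant and 23.8 CPM ± 2.82 in control libraries (SD, n = 3 each). It was 18.4-fold lower, with a log2 fold change of -4.20 ± 0.32 (standard error; adjusted p = 0.00073 in edgeR). The call was kept in all 6 fits that left out a single library, where the log2 fold change lay between -4.55 and -3.95. None of the 10 nearest tested genes in gene order, 5 on each side, was called for Adam12 or any other called member. Of the other members given in every library, Mmp2 had 2 of 10 called higher (Lpcat2 and Gnao1). Adam9 had 2 of 10 called lower (Zmat4 and Fgfr1). Adam10 and Timp2 had 1 of 10 each, called lower (Cgnl1 and Cyth1), and the rest had none. Over all tested genes 2.22% were called.

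The widely expressed sheddase genes Adam10, Adam17 and Adam9 were not called. Adam10 encodes the enzyme that cuts Notch receptors after ligand binding, and Adam17 the enzyme that releases tumour necrosis factor and several ligands of the EGF receptor. Adam10 had 111.7, 194.2 and 147.2 CPM in mutant libraries, against 249.5, 166.5 and 186.5 CPM in control libraries (log2 fold change -0.41 ± 0.23, standard error; adjusted p = 0.422 in edgeR). Adam17 averaged 95.9 CPM ± 32.6 in mutant and 119.8 CPM ± 37.9 in control libraries (SD, n = 3 each). Its log2 fold change was -0.32 ± 0.29 (standard error; adjusted p = 0.629 in edgeR). Adam9 encodes a membrane proteinase whose loss causes cone-rod dystrophy in humans. It had 78.4, 145.8 and 66.9 CPM in mutant libraries, against 179.9, 133.7 and 136.3 CPM in control libraries. At a log2 fold change of -0.63 ± 0.29 it was not called (standard error; adjusted p = 0.34 in edgeR). Without mutant library 2 it was, at -1.05 (edgeR adjusted p = 0.0194). For each of Adam9, Adam10 and Adam17 the groups overlapped. Mutant library 2 was the highest of the mutants and control library 1 the highest of the controls for all 3 genes, and these were also the libraries of largest crystallin share in their groups. With crystallin share as covariate, none of the 3 genes was called.

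Adam22 and its relatives Adam11 and Adam23 encode neural adhesion proteins without proteinase activity, which bind the secreted LGI proteins. Adam22 had 14.7, 27.4 and 16.2 CPM in mutant libraries, against 43.7, 31.1 and 37.6 CPM in control libraries. All mutant values lay below all control values. The log2 fold change of -0.95 ± 0.26 missed the threshold in edgeR (standard error; adjusted p = 0.12) and passed in DESeq2, in limma voom and with crystallin share as covariate. Without mutant library 2 it was -1.28 (edgeR adjusted p = 0.0157). Adam11 and Adam23 stood at means of 1.69 and 0.691 CPM in mutant libraries, against 1.93 and 1.12 CPM in control libraries, and neither was called. Adam15, Adam19 and Adam21 were also tested and not called, at means of at most 6.17 CPM in either group. Of the Adam genes that were not tested, many of them known from testis and sperm, 8 had no count in any library.

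The secreted ADAMTS enzymes moved in both directions. Of 9 tested Adamts genes, 1 rose, 1 fell and 7 were not called. Adamts4 encodes an aggrecanase, which cuts the large proteoglycans aggrecan, versican and brevican. It had 34.1, 62.8 and 23.8 CPM in mutant libraries, against 11.4, 6.68 and 8.20 CPM in control libraries. The lowest mutant value was more than the highest control value, while the mutant libraries themselves ranged widely. Adamts4 averaged 40.2 CPM ± 20.2 in mutant and 8.77 CPM ± 2.43 in control libraries (SD, n = 3 each). It was 4.58-fold higher, with a log2 fold change of 2.20 ± 0.38 (standard error; adjusted p = 0.0287 in edgeR). The call was lost without mutant library 1 or control library 2 or 3, where the log2 fold change lay between 2.03 and 2.30.

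RNA of genes for the proteoglycan targets named above was scarce in these libraries, and protein was not measured. The 8 listed genes of hyalectans and their link proteins summed to 1.68, 1.24 and 1.91 CPM in mutant libraries, against 2.17, 1.28 and 1.66 CPM in control libraries. Of these, 2 were tested and neither was called, and Vcan, the versican gene, averaged 0.779 CPM in mutant and 0.421 CPM in control libraries. The related enzyme genes Adamts1 and Adamts5 were not called. Adamts1 averaged 3.90 CPM ± 1.23 in mutant and 3.61 CPM ± 0.836 in control libraries, and Adamts5 1.23 CPM ± 0.120 in mutant and 2.43 CPM ± 1.75 in control libraries (SD, n = 3 each). The groups of both genes overlapped.

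Adamts17, which encodes a secreted enzyme tied to fibrillin fibres, fell. It had 5.28, 6.27 and 5.40 CPM in mutant libraries, against 19.1, 14.03 and 12.4 CPM in control libraries. The mutant libraries lay close together and all below the controls. It was 2.69-fold lower, with a log2 fold change of -1.43 ± 0.25 (standard error; adjusted p = 0.0268 in edgeR). This call was kept only without mutant library 2 and was lost in each of the other 5 fits that left out a library, where the log2 fold change lay between -1.56 and -1.23. Adamts10, another fibrillin-binding member, averaged 4.52 CPM ± 2.19 in mutant and 5.87 CPM ± 1.88 in control libraries and was not called (SD, n = 3 each; edgeR adjusted p = 0.742). Adamts6, a close relative of Adamts10, had 4.11, 2.56 and 2.23 CPM in mutant libraries, against 5.31, 5.28 and 6.10 CPM in control libraries. These groups did not overlap, and the log2 fold change of -0.90 ± 0.36 was not called (standard error; adjusted p = 0.262 in edgeR).

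Adamts18 was the Adamts gene of highest level per length and stood at a similar mean in both groups. It had 176.8, 383.1 and 141.8 CPM in mutant libraries, against 270.1, 154.2 and 207.2 CPM in control libraries. The groups overlapped fully, with mutant library 2 and control library 1 again highest. The log2 fold change was 0.15 ± 0.38 and not called (standard error; adjusted p = 0.888 in edgeR). Its sign turned without mutant library 2 (-0.40) or control library 2 (-0.03).

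Adamtsl4 showed the second largest decrease among the members. Its protein binds fibrillin and lacks a proteinase domain. Adamtsl4 had 314, 79 and 245 counts in mutant libraries, against 844, 1142 and 2386 counts in control libraries. On the scaled level it had 15.9, 6.51 and 13.4 CPM in mutant and 63.1, 69.4 and 132.2 CPM in control libraries. The highest mutant value was well below the lowest control value, and control library 3 stood above the other controls. It averaged 11.9 CPM ± 4.87 in mutant and 88.2 CPM ± 38.2 in control libraries (SD, n = 3 each). It was 7.33-fold lower, with a log2 fold change of -2.87 ± 0.41 (standard error; adjusted p = 0.0144 in edgeR). The call was lost without mutant library 3 (log2 fold change -2.95; edgeR adjusted p = 0.0805) and kept without each of the other 5 libraries, where the log2 fold change lay between -3.14 and -2.46. Adamtsl1 and Adamtsl5, the other tested Adamtsl genes, had means under 1 CPM in both groups. Adamtsl1 had 0.609, 0.247 and 0.981 CPM in mutant libraries, against 0.598, 0.304 and 0.776 CPM in control libraries, and its log2 fold change of 0.16 ± 0.75 turned sign in 3 of the alternatives (standard error; adjusted p = 0.939 in edgeR).

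The fibrillin genes themselves were not called. Fbn1 averaged 4.01 CPM ± 2.33 in mutant and 2.85 CPM ± 0.699 in control libraries, and Fbn2 8.15 CPM ± 5.24 in mutant and 7.69 CPM ± 3.31 in control libraries (SD, n = 3 each). Of 9 tested genes of the fibrillin microfibril list, 1 rose and 8 were not called, against 2.22% called over all tested genes. The gene that rose was Tgfb2, which encodes a growth factor stored on microfibrils through its latent binding proteins. Tgfb2 had 201.1, 239.4 and 224.4 CPM in mutant libraries, against 111.4, 123.3 and 105.6 CPM in control libraries (log2 fold change 0.97 ± 0.13, standard error; adjusted p = 0.00831 in edgeR).

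**Figure D2:**
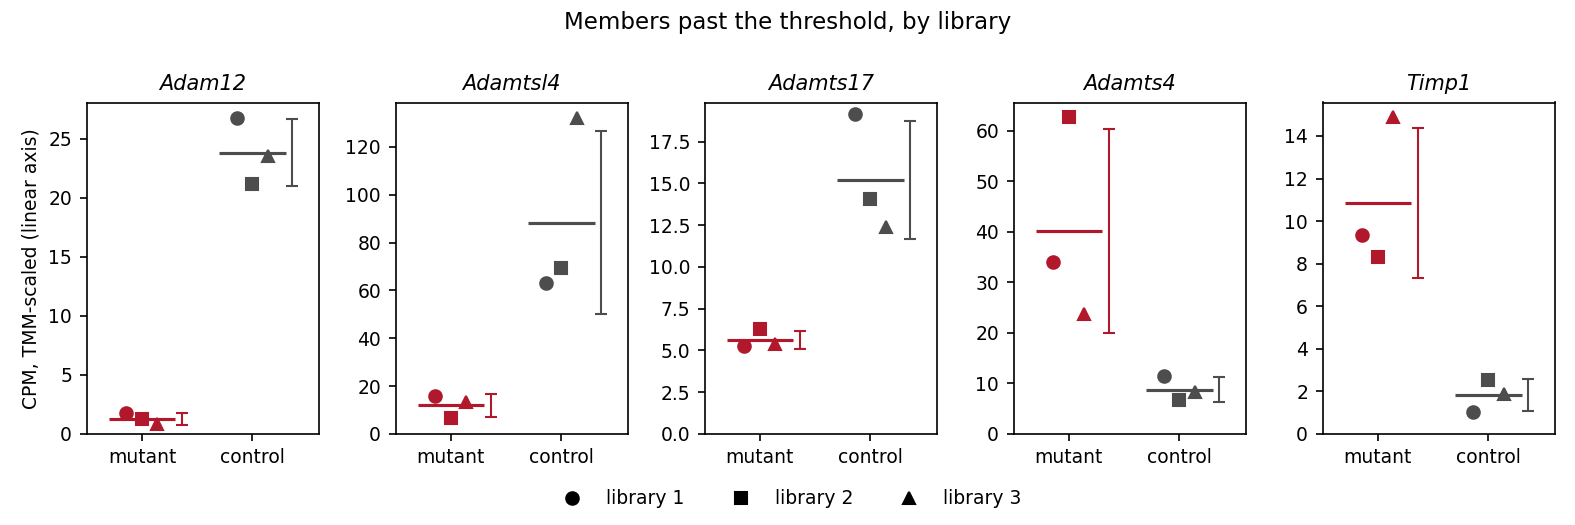
TMM-scaled CPM of the 5 called members in each library, on linear axes that start at 0; symbols mark library numbers, horizontal lines the group means and the bars beside them 1 SD (n = 3). In every panel all mutant values lie on the same side of all control values.

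Promoter sequence was read for the called members that have an entry in the RefSeq promoter table of build GRCm38.p6, which were Timp1, Adamtsl4 and Adamts17. The 250 bases before the annotated start were searched on both strands for the Pea3 hexamer AGGAAG, the ETS core CCGGAA and the AP-1 site TGACTCA. No GGAA can belong to both of the first motifs, since the base before it differs. The windows are shown because these genes changed in a loss of Pea3 factors, and capitals mark a match. They lie at chrX:20869916-20870165 (plus strand) for Timp1, chr3:95687918-95688167 (minus strand) for Adamtsl4 and chr7:66839485-66839734 (plus strand) for Adamts17.
Timp1: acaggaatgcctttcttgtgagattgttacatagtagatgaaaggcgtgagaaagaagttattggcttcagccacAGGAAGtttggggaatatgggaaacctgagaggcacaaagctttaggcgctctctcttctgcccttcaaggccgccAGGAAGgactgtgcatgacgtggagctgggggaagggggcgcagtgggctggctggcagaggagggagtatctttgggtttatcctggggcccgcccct
Adamtsl4: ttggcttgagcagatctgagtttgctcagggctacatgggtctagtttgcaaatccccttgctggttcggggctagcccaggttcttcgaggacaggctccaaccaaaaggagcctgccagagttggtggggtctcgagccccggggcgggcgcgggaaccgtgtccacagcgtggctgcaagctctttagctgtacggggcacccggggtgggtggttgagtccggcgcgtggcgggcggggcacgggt
Adamts17: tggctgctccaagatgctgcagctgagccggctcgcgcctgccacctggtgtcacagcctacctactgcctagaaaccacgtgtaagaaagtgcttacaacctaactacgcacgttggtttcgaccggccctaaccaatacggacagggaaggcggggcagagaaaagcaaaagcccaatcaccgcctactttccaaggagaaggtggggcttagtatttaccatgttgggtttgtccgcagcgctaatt

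The Timp1 window held AGGAAG at 2 positions, starting 175 and 99 bases before the start. The windows of Adamtsl4 and Adamts17 held none of the 3 motifs. AGGAAG was found in 31.0% of the 9182 tested genes with a window and in 8 of the 22 tested members with a window. Those members were Adam10, Adam17, Adam19, Adamts12, Mmp14, Timp1, Timp3 and Timp4. CCGGAA was found in 26.0% of tested genes and in 2 of the 22 members, Adam15 and Adam17. TGACTCA was found in 3.66% of tested genes and in 1 of the 22 members, Adam19. A match describes letters only, and no binding was measured here.

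Among the inhibitors Timp1 rose, and the share of Timp3 within the family was lower in mutant libraries. Timp1 encodes a secreted inhibitor induced by growth factors and cytokines in many cells. It had 184, 101 and 273 counts in mutant libraries, against 14, 42 and 34 counts in control libraries, or 9.34, 8.33 and 14.9 CPM against 1.05, 2.55 and 1.88 CPM. All mutant values exceeded all control values. Timp1 was 5.88-fold higher, with a log2 fold change of 2.56 ± 0.41 (standard error; adjusted p = 0.0175 in edgeR). Timp1 lies on the X chromosome. Without mutant library 1, the library of the other sex, its log2 fold change was 2.66 and the call was lost (edgeR adjusted p = 0.0733). The call was also lost without mutant library 3 or control library 2 or 3, where the log2 fold change lay between 2.26 and 2.87. Timp1 lies within the gene body of Syn1 on the opposite strand, with 0 shared exon bases in the GENCODE annotation of GRCm38, and Syn1 had at most 17 counts in any library. The kit does not mark strand, so reads of overlapping genes can be told apart only by exon.

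Timp2, Timp3 and Timp4 did not pass in edgeR. Timp2 encodes the inhibitor that also helps membrane-type MMPs to activate Mmp2. It had 326.8, 461.9 and 322.0 CPM in mutant libraries, against 266.5, 210.8 and 203.2 CPM in control libraries. The lowest mutant value lay above the highest control value (log2 fold change 0.71 ± 0.18, standard error; adjusted p = 0.1 in edgeR). Timp3 encodes the inhibitor that binds to the matrix and also blocks Adam17 and several ADAMTS enzymes. It had 51.8, 75.0 and 67.0 CPM in mutant libraries, against 185.7, 127.7 and 90.5 CPM in control libraries. The highest mutant value lay below the lowest control value (log2 fold change -1.06 ± 0.27, standard error; adjusted p = 0.0948 in edgeR). Both passed in DESeq2, in limma voom and with crystallin share as covariate. Timp4 was low throughout, with 6, 6 and 15 counts in mutant libraries, against 48, 30 and 14 counts in control libraries. Its groups overlapped, and its log2 fold change of -1.91 ± 0.73 was not called (standard error; adjusted p = 0.248 in edgeR). Its log2 fold change was -1.25 without control library 1 and -1.22 with crystallin share as covariate. Timp4 shares 90 exon bases with Syn2 on the opposite strand in the annotation, so its few counts are uncertain.

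Within each library the balance between Timp2 and Timp3 differed. The ratio of Timp2 to Timp3 CPM was 6.31, 6.16 and 4.81 in mutant libraries, against 1.43, 1.65 and 2.25 in control libraries. This ratio is taken inside each library, so library scaling does not alter it, and the lowest mutant ratio was over the highest control ratio. That separation follows from the separate groups of Timp2 and of Timp3 given above, so it is no further evidence. Timp2 made up 84.2%, 84.6% and 79.6% of summed Timp CPM in mutant libraries, against 58.3%, 61.5% and 68.6% in control libraries. Timp3 made up 13.3%, 13.7% and 16.6% in mutant libraries, against 40.7%, 37.2% and 30.5% in control libraries. The summed Timp level itself overlapped between groups, with 388.2, 545.7 and 404.7 CPM in mutant libraries, against 456.8, 342.8 and 296.4 CPM in control libraries. The ratio shows unequal change of the pair and not which of them changed.

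**Figure D3:**
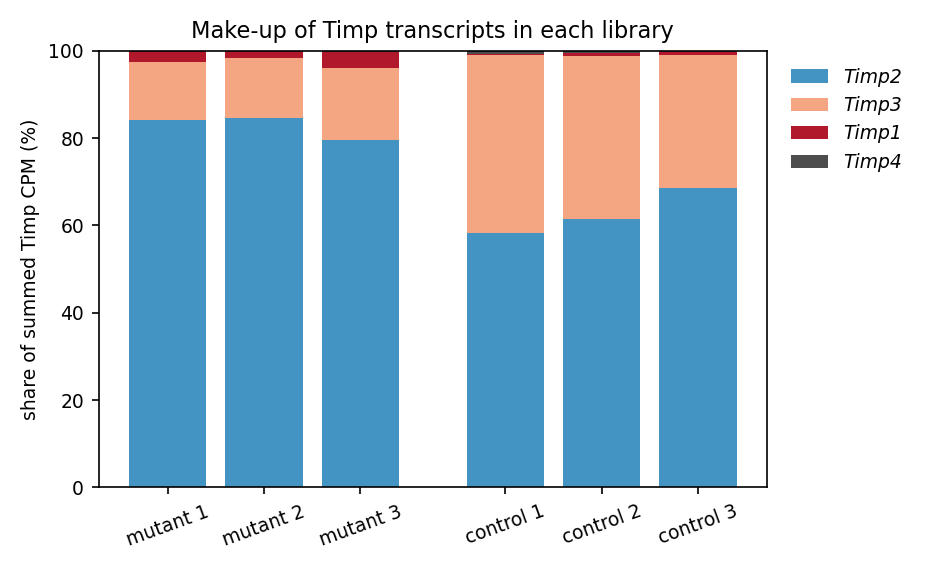
Share of the summed CPM of the 4 Timp genes that each gene took in every library, as stacked bars that add up to 100%. Timp3 takes between 13.3% and 16.6% in the 3 mutant libraries and between 30.5% and 40.7% in the 3 control libraries.

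No Mmp gene was called in edgeR, although DESeq2 and limma voom called both Mmp14 and Mmp2. Mmp14 encodes a membrane-type MMP that activates Mmp2, and Mmp2 encodes gelatinase A, which cuts type IV collagen. Mmp14 had 25.2, 7.50 and 10.8 CPM in mutant libraries, against 2.92, 1.46 and 4.43 CPM in control libraries. Its log2 fold change was 2.30 ± 0.56 (standard error; adjusted p = 0.091 in edgeR). Mmp2 had 16.6, 4.45 and 15.7 CPM in mutant libraries, against 2.54, 1.70 and 4.05 CPM in control libraries. Its log2 fold change was 2.15 ± 0.54 (standard error; adjusted p = 0.0961 in edgeR). For both genes every mutant library lay above every control library, and mutant library 2 was the lowest mutant. For Mmp2 that library lay close to control library 3. Without mutant library 2 both passed, at log2 fold changes of 2.61 and 2.54 (edgeR adjusted p = 0.0361 and 0.0107). With each of the other 5 libraries left out in turn, neither passed. Without mutant library 1 the log2 fold change was 1.64 for Mmp14 and 1.87 for Mmp2 (edgeR adjusted p = 0.266 and 0.289). The log2 fold change of Mmp14 was 2.97 in limma voom, and that of Mmp2 was 1.55 with crystallin share as covariate (edgeR adjusted p = 0.0556).

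Macrophage markers, like Mmp14 and Mmp2, were lowest in library 2 among the mutant libraries. This was not particular to them, since the summed mesenchyme and endothelial markers below were lowest there too. So was the lens marker Foxe3, at 152.1, 39.7 and 155.7 CPM in mutant libraries. Other lens markers went the other way, such as Mip at 452.6, 1516.8 and 553.2 CPM in mutant libraries. The 8 macrophage markers found in the table summed to 25.7, 4.04 and 27.4 CPM in mutant libraries, against 8.37, 3.77 and 0.942 CPM in control libraries. Of these, 4 were tested, none was called, and none was at 0 in all libraries. Among control libraries their sum was lowest in library 3, where Mmp14 and Mmp2 were highest. C1qa, which encodes a complement protein that macrophages make, had 53, 10 and 114 counts in mutant libraries, against 17, 7 and 1 counts in control libraries. Mrc1 alone of the 8 macrophage markers went the other way. It had 4, 0 and 1 counts in mutant libraries, against 13, 8 and 0 counts in control libraries. The 12 markers of periocular mesenchyme summed to 162.9, 95.99 and 170.5 CPM in mutant libraries, against 53.6, 118.8 and 157.2 CPM in control libraries. Most of this came from Pdgfra, and the other 11 markers summed to 10.4, 5.77 and 7.47 CPM in mutant libraries, against 10.99, 22.7 and 4.66 CPM in control libraries. Of these 11, 4 were tested and none was called. Log2 fold changes were positive for Twist1 and negative for Foxc1, Col1a2 and Col3a1. Twist1 had 107, 16 and 64 counts in mutant libraries, against 0, 14 and 4 in control libraries. Col3a1 had 9, 7 and 2 counts in mutant libraries, against 49, 82 and 10 in control libraries. The 7 endothelial markers summed to 53.5, 23.2 and 57.0 CPM in mutant libraries, against 44.1, 34.2 and 45.3 CPM in control libraries, and most of that came from Tek. On the scaled level Tek was highest in mutant library 3, at 53.1 CPM, and Kdr in control library 1, at 2.17 CPM. All the others also peaked in control library 1, such as Pecam1 (25 counts), Cdh5 (34), Tie1 (38) and Emcn (56). Timp3 and Timp4 were also highest in control library 1. The 6 markers of surface ectoderm summed to 1.93, 4.54 and 7.85 CPM in mutant libraries, against 0.972, 2.37 and 0.610 CPM in control libraries, with Krt12 at 0 throughout. Markers of neural retina summed to at most 17.6 CPM and those of pigment epithelium to at most 9.12 CPM in any library, with Six6, Tyr and Rpe65 at 0. The part of other cells in the Mmp14, Mmp2, Timp1, Timp3 and Timp4 values was not tested.

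Mmp11, which encodes stromelysin-3 and is released in active form, was the Mmp gene of highest level per length. It had 25.5, 19.6 and 24.7 CPM in mutant libraries, against 14.9, 17.4 and 21.8 CPM in control libraries. The groups overlapped, and the log2 fold change of 0.37 ± 0.21 was not called (standard error; adjusted p = 0.435 in edgeR). Log2 fold changes were positive for all 7 tested Mmp genes, with a median of 0.91, against 6158 of all 12257 tested genes. All 7 were also positive with DESeq2 size factors and with TMM without crystallin genes. These settings moved log2 fold changes by medians of only -5.27e-05 and -0.00055, so they hardly test the signs. The 7 genes share the same 6 libraries, and some were imprecise, such as Mmp28 at 0.27 ± 0.67 (standard error). The sign of Mmp28 turned in limma voom and without mutant library 3. Mmp9, Mmp15, Mmp16 and Mmp28 had means under 2 CPM in both groups.

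**Figure D4:**
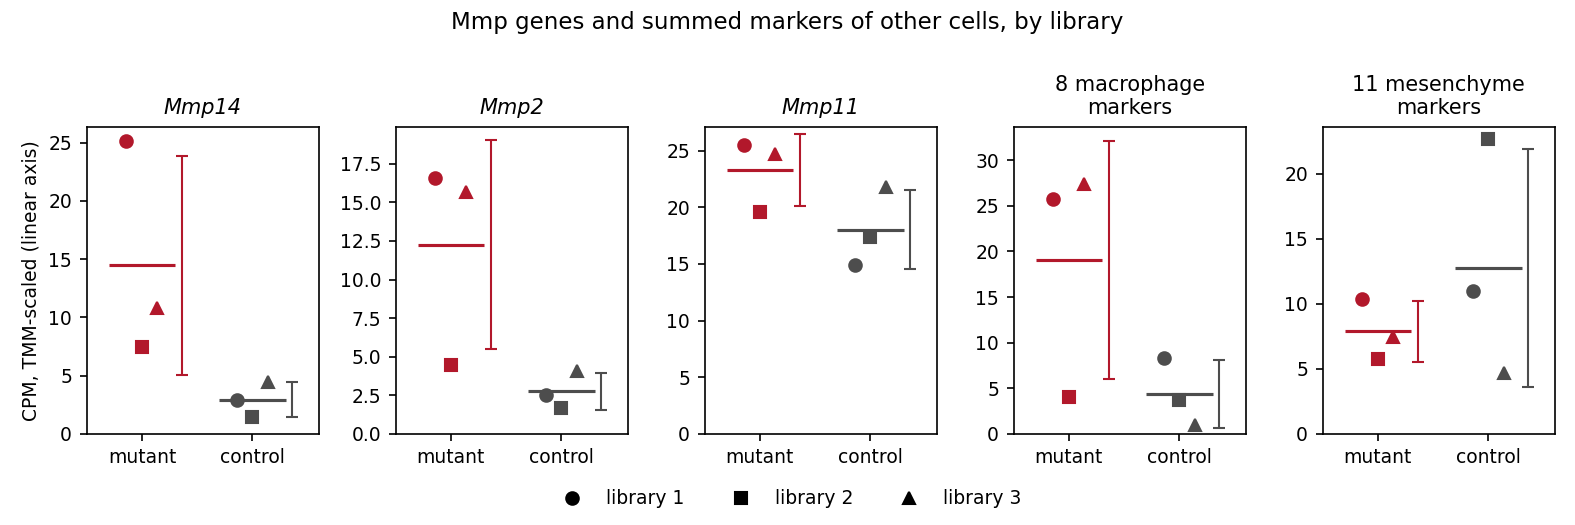
TMM-scaled CPM of Mmp14, Mmp2 and Mmp11 in each library, beside the summed CPM of 8 macrophage markers and of 11 periocular mesenchyme markers without Pdgfra; lines are group means and bars 1 SD (n = 3). Mutant library 2 is the lowest mutant library in each of the 5 panels.

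Expressed and silent members lay side by side in the genome. Of the 43 members that were not tested, 18 had no count in any library and the other 25 had between 1 and 42 counts in all 6 libraries together. A count of 0 allows up to 0.152 to 0.247 CPM per library (3 counts, counting error only). The silent members included Mmp13, Mmp12, Mmp3, Mmp10, Mmp8, Mmp27, Mmp20 and Mmp7, which lie on chromosome 9 in a single run of the table, interrupted only by the non-members Mmp1b and Mmp1a, also at 0. The run includes genes of collagenases and stromelysins. On chromosome 8, Adam9 follows Adam18, Adam3, Adam5 and Adam32 in the order of the table. Adam9 had 4541 counts in mutant and 7067 in control libraries together. Adam18 had none in either group, Adam3 had 1 in mutant and 5 in control, Adam5 20 in mutant and 13 in control, and Adam32 18 in mutant and 5 in control libraries.

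Scaled to exon length, Timp2 led the members in both groups, with 99.8 CPM per kb in mutant and 61.2 CPM per kb in control libraries. Exon lengths came from the GENCODE annotation of GRCm38, another build than the authors'. In control libraries Adam10, Adamts18, Adam9, Timp3, Adam17 and Adamtsl4 followed at 43.7, 37.3, 37.1, 28.5, 26.6 and 21.9 CPM per kb. The ranges of neighbours within that run overlapped over the 3 control libraries, whereas Timp2 lay above Adam10 and Adamtsl4 above Mmp11 in every control library. In mutant libraries Adamtsl4 ranked 12, against 7 in control libraries, at 2.96 CPM per kb. Adam12 ranked 28 in mutant libraries at 0.166 CPM per kb, against 10 in control libraries at 3.10 CPM per kb. Timp1 ranked 7 in mutant libraries at 12.2 CPM per kb, against 13 in control libraries at 2.06 CPM per kb.

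**Figure D5:**
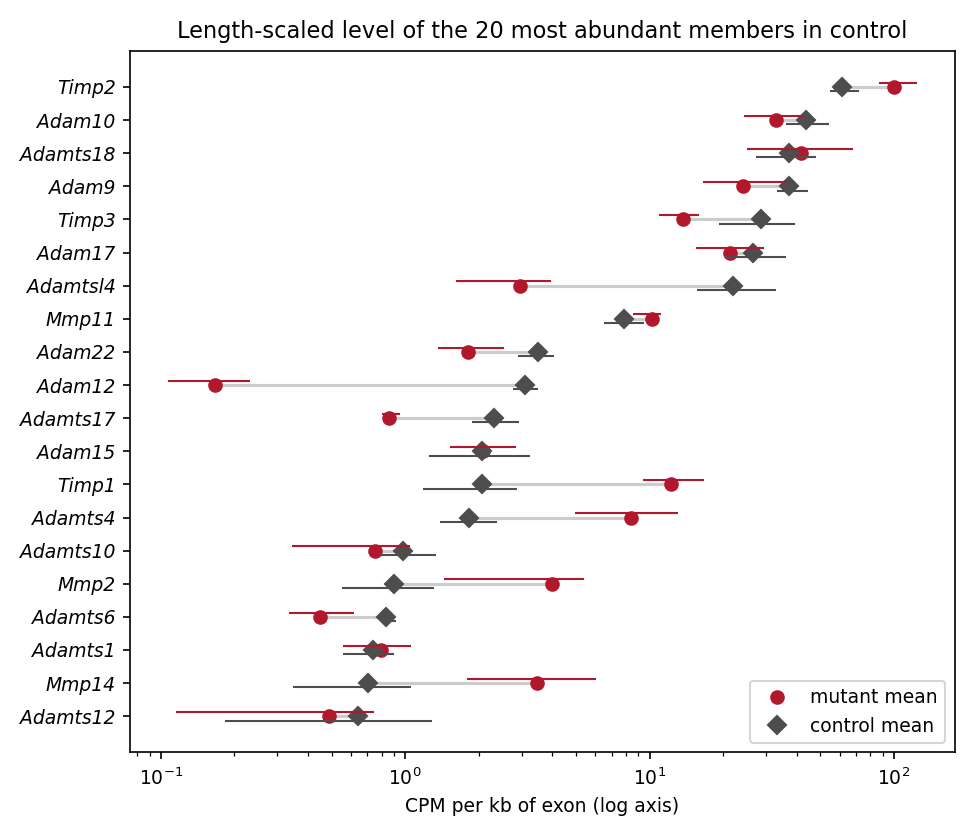
Mean CPM per kb of exon (log axis) in mutant libraries (circles) and control libraries (diamonds) for the 20 members highest in control libraries; thin lines span the lowest to the highest of the 3 libraries. Adam12 and Adamtsl4 show the widest gaps to the left, and Timp1, Mmp14, Adamts4 and Mmp2 the widest to the right.

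In each list that follows, of genes that act on these enzymes or are shed by them, 1 gene was called. Over all 12257 tested genes 2.22% were called. Tetraspanins carry Adam10 through the cell and iRhoms do so for Adam17. Of 8 tested regulators of this kind, 1 rose and 7 were not called. Tspan17, one of the tetraspanins that bind Adam10, had 57.5, 76.7 and 76.6 CPM in mutant libraries, against 22.1, 18.2 and 15.9 CPM in control libraries (log2 fold change 1.91 ± 0.19, standard error; adjusted p = 0.00172 in edgeR). Of 10 tested activators and other inhibitors, 1 fell and 9 were not called. Pcsk6, which encodes a proprotein convertase of the furin family, had 3.60, 7.42 and 4.47 CPM in mutant libraries, against 23.2, 13.2 and 14.6 CPM in control libraries (log2 fold change -1.73 ± 0.35, standard error; adjusted p = 0.0435 in edgeR). Of 13 tested shed ligands and receptors, 1 fell and 12 were not called. The member that fell was Jag1, a Notch ligand (log2 fold change -1.12 ± 0.17, standard error; adjusted p = 0.0126 in edgeR).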

How the data were processed

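RNA of 6 lens transition zone libraries (E14.5) was converted to cDNA with a SMART-seq v4 kit and tagmented for Illumina sequencing, per the labels' protocols. Tools listed in the submitters' processing notes, with no role stated, are TopHat, Cufflinks, DESeq and bcl2fastq 1.8.4, and the build listed is mm9; how reads were counted is not given in the sources used here. Raw counts by gene symbol were deposited both as a table and as library files, with 0 cells differing. Their deposited comparison table holds a mean normalized count (a signal), log2 fold changes with standard errors, a test score and p-values; positive values stand for higher in mutant.

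Counts were tested with edgeR 4.0.16 in R 4.3.3: filterByExpr (minimum count 10, minimum total 15), TMM scaling, robust quasi-likelihood test without covariates, Benjamini-Hochberg adjustment over 12257 genes and a threshold of 0.05. Standard errors come from the F statistic. The 43 members below the filter got no test. A member that passed through its high group only had to differ, so shares over tested members describe those alone. DESeq2 1.42.0 and limma 3.58.1 (voom with quality weights), other scalings and filters, a replicate block, the crystallin share as a covariate and leaving out each library were alternatives. The procedure was tested on simulated counts. Replicates differed by far more than counting noise (chi-square per degree of freedom at least 29.7), and nothing says that they are separate embryos, so the p-values speak only for the spread among these 6 libraries. Reads carry no molecular identifiers. The result of an overlap check is not reported here. Exon lengths, overlaps and promoters come from GRCm38 tables, matched by symbol for 76 of 76 members (a promoter window for 46).

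Members and lists were chosen with earlier results of these data known. Values in every library are given for tested members with an unadjusted p under 0.05, for the 2 of highest mean CPM in each family and for every Timp gene; Adam11, Adam17, Adam23, Adamts1, Adamts5 and Adamts10 were added for their roles after their values were seen, as were the overlapping genes and markers named. Of the partner lists, called genes are named; Vcan, Fbn1 and Fbn2 were also added after their values were seen.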

Additional observations from a re-analysis of the deposited data

How the results depend on the processing

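In edgeR 2 members were called higher and 3 lower, among 272 called genes. DESeq2 called 5 higher and 5 lower among 821 genes, limma voom 5 and 5 among 801, and the crystallin share as a covariate 3 higher and 6 lower among 798. With the replicate block, 0 members were called higher, 2 lower (Adam12 and Adamtsl4) and 122 genes in all, so Adamts17 (edgeR adjusted p = 0.0967), Adamts4 and Timp1 were lost. Over all tested genes, same-numbered libraries did not deviate together (correlations of -0.284, -0.147 and 0.219). These correlations cannot exclude a pairing by number, since replicates also differed in crystallin share. Without 1 library, calls ranged from 0 to 4 members higher, from 1 to 5 lower and from 91 to 479 genes. The sign of Adamtsl1 turned with the crystallin covariate (-0.30) and without mutant library 3 (-0.35) or control library 2 (-0.15; range without 1 library -0.35 to 0.50), and that of Adamts18 without mutant library 2 (-0.40) or control library 2 (-0.03; range -0.40 to 0.41). Other scalings and filters kept the 5 calls. The cause of these shifts was not tested. For the 17 members given in every library, of the log2 fold changes under an alternative 195 kept direction and side of the threshold, 18 newly passed and 16 no longer passed. Of the other tested members, Adamts12 newly passed with the crystallin covariate (-1.32; edgeR adjusted p = 0.0434), and the signs of Adam11, Adam15, Adamts1, Adamts12, Adamtsl5 and Mmp28 turned in at least 1 alternative. Members under about 1 CPM rest on few counts.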
